A study of Mus musculus with 3 samples.

Results

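The 44 genes described here encode enzymes that add methyl groups to histone lysines or remove them, with partners of these enzymes. They were taken as a list of names and matched by Ensembl identifier and mouse symbol, older aliases included, among 29267 genes with an expected count. All 44 were found and had a count in at least 1 of the 3 libraries. They comprised 15 demethylases of the JmjC family, 23 methyltransferases and 2 amine oxidase demethylases, Kdm1a and Kdm1b. The others were the PRC2 subunits Eed and Suz12 and the JmjC proteins Jarid2 and Jmjd6, which are not counted among histone lysine demethylases here.

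RNA-seq was performed on mouse embryonic fibroblasts (MEFs), from which reprogramming starts, and on embryonic stem cells (ESCs), its pluripotent reference. The study examined how retinoic acid and an ascorbate salt act on that process, and the libraries of treated cells were not analysed here. MEFs between passages 3 and 5 came from the ICR strain and from OG2 mice, whose Oct4-GFP transgene reports pluripotency. R1 ESCs, labelled naive, had reached passage 30. The labels named no treatment for these 3 samples, and each strain or line was represented by 1 library. The MEF samples therefore differed in strain, while the ESC side had no replicate. The p-values rest on the spread between the MEF samples (n = 2), drawn for each gene towards the trend over all genes tested.

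Lysines on histone tails carry methyl groups that are written by SET domain enzymes, and by Dot1l, which has another fold. Methylation at H3K4 is typical of active promoters and enhancers, H3K36 of transcribed gene bodies, and H3K9, H3K27 and H4K20 of silent or compacted chromatin. JmjC demethylases use iron, oxygen and 2-oxoglutarate, and ascorbate supports their activity, whereas methyltransferases use S-adenosylmethionine and Kdm1a and Kdm1b use FAD.

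The expected counts summed to between 1717838 and 5149312 per library, lowest in the library labelled ESC, where 3 counts correspond to 1.75 counts per 1000000 (CPM) before scaling. All 10 fibroblast markers fell in the library labelled ESC, with a summed CPM of 33778 and 35292 in MEFs against 4212. Of 12 pluripotency markers 4 rose there, among them Pou5f1 (0 counts in both MEF samples and 71 in the library labelled ESC). The other 8 included 6 at 0 counts, namely Zfp42, Esrrb, Dppa3, Dppa5a, Utf1 and Lin28a. Of 8 epithelial and extraembryonic markers 3 rose and 1 fell, with a summed CPM of 39.6 and 41.6 in MEFs against 224, and of 4 blood markers 1 fell. The sample is called the library labelled ESC for this reason, and what these markers mean for the values that follow was not tested. In bulk samples, fewer cells of a type and less RNA per cell cannot be told apart.

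Most of the demethylases that act on H3K9 were far lower in the library labelled ESC than in MEFs, while the methyltransferases were divided. Kdm7a and the H4K20 methyltransferase Kmt5c showed the largest rises, and Kdm4a, Kdm4c and Kdm3b the largest falls. Levels were taken as log2(CPM + 1) after TMM scaling, a scale that understates the change of low genes, and a difference is the value of the library labelled ESC after subtraction of the MEF mean. Of the 43 members tested, 14 were called higher and 19 lower by the quasi-likelihood test of edgeR, with Benjamini-Hochberg adjusted p-values under 0.05. Over the 12663 genes tested, 31.4% were called higher and 36% lower. DESeq2 called 7 members higher and 14 lower, against 22.8% and 22% of its 13322 genes. Set against each MEF sample with a margin of 1 log2 unit, 4 members were higher and 17 lower, against 21.9% and 25.9% of the 17810 genes with a count. The median difference was -0.63 over the members and -0.13 over all genes. These directions hold for CPM. Among called members, differences turned sign with TPM for Kdm4b, Kdm6b, Jmjd6, Ezh2, Suv39h1, Dot1l, Kmt2b, Kmt2d, Setd1a and Kmt5a, and with a correction for GC content or length for Kdm4b, Kdm5b, Jmjd6, Dot1l, Kmt2a and Kmt2d. Among uncalled members they did so with TPM for Kdm1a, Kdm2a, Jarid2, Ezh1 and Suv39h2, and with both corrections for Eed, Nsd2 and Kmt5b. Kdm4d, a germline-enriched H3K9 demethylase, had 1, 0 and 0 counts and was not tested.

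**Figure D1:**
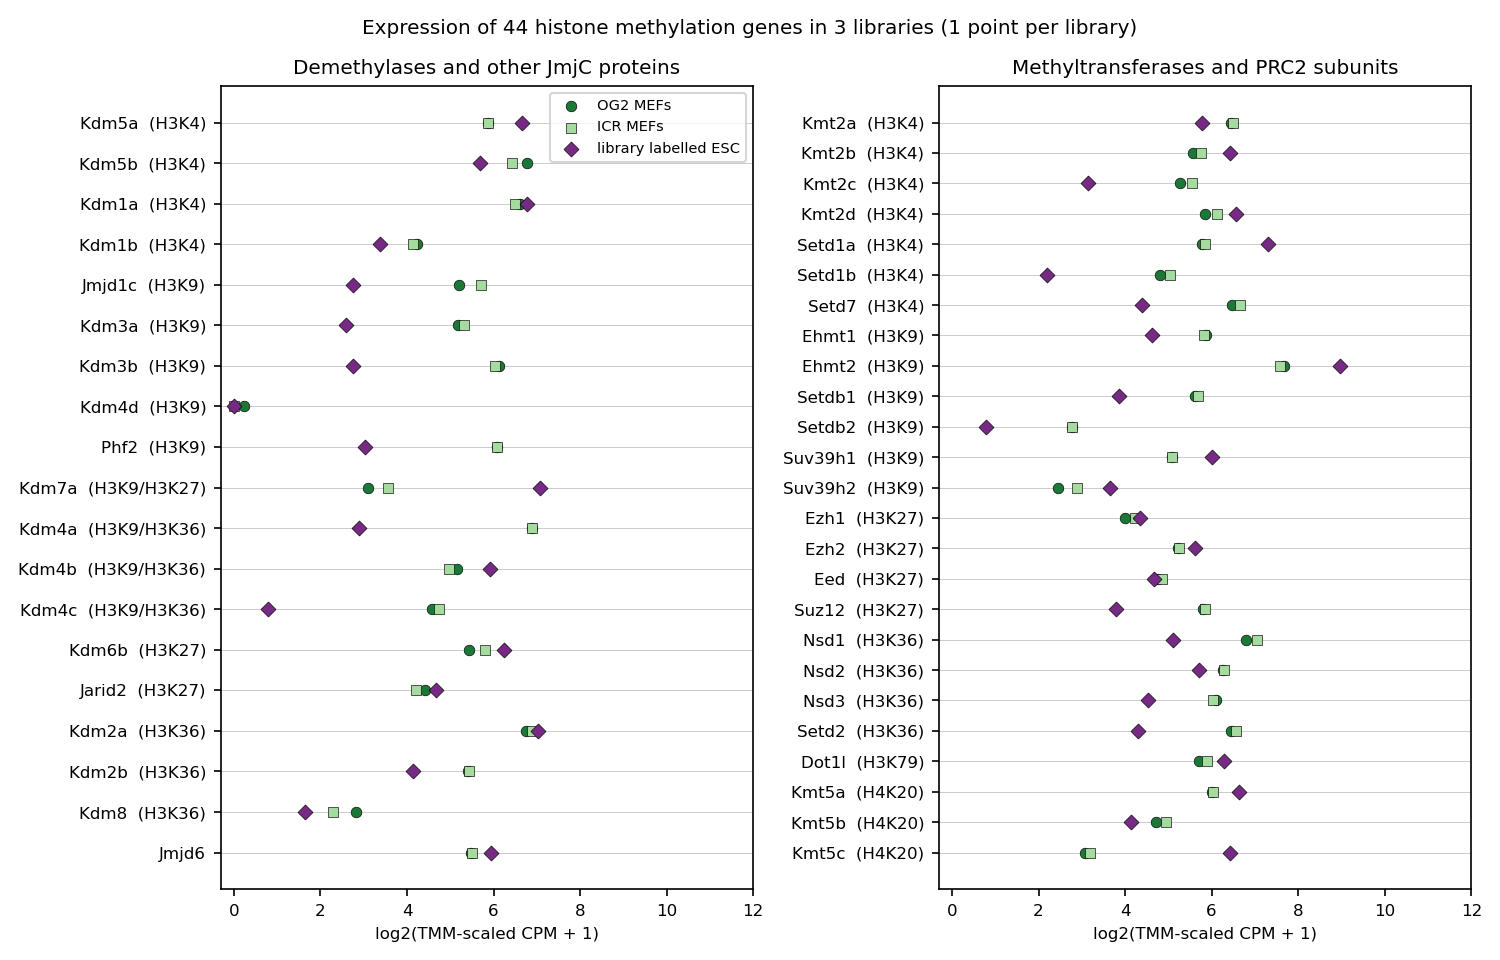
Level of each of the 44 members in log2(TMM-scaled CPM + 1), 1 point per library, with demethylases and other JmjC proteins on the left and methyltransferases and PRC2 subunits on the right, and the target residue in brackets. The points of both MEF samples lie close together for most members, with the largest gap at Kdm8 (0.53), whereas the library labelled ESC lies far to the left for Kdm4a and far to the right for Kdm7a.

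The MEF samples differed little from each other. None of the 44 members was at least 1 log2 unit apart between OG2 and ICR MEFs, against 2.76% of all genes with a count, and 36 were within 0.25. The widest gaps were at Kdm8 (0.53, OG2 minus ICR), Jmjd1c (-0.49), Kdm7a (-0.46) and Suv39h2 (-0.44). Across the 43 members tested, which share libraries and are not independent, Spearman's rho of the levels was 0.98 between OG2 and ICR MEFs. It was 0.33 between the MEF mean and the library labelled ESC.

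Per unit of transcript length, the members highest in MEFs were Ehmt2, Kmt5a and Kdm1a, by the deposited TPM. Ehmt2, the H3K9 methyltransferase also called G9a, had 135 TPM in OG2 and 115 in ICR MEFs, while the library labelled ESC had 288, and it was again the highest member there. Kmt5a, which places the single methyl group at H4K20, had 75.3 and 73.8 TPM in MEFs and 27 in the library labelled ESC. Kdm1a, an H3K4 demethylase of the CoREST complex, had 72.2, 71.6 and 27.2 TPM in the same order. TPM shares a fixed sum, and the median difference of all genes lay 1.11 log2 units lower on this scale than in CPM (-1.11), so a lower TPM alone is not a fall.

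The H3K9 demethylases had the lowest median difference of the groups by residue, -2.70 over 9 members. Of the 8 tested, 6 fell and 2 rose, beside 36% of all genes called lower and 31.4% higher. The Kdm3 enzymes, which remove the lower methylation states of H3K9, all fell. Kdm3a (chr6:71588972-71632990) had log2 levels of 5.19 in OG2 and 5.32 in ICR MEFs, while the library labelled ESC had 2.59, from 200, 202 and 7 counts. Kdm3b (chr18:34777047-34838660) had 6.13, 6.02 and 2.75, from 388, 331 and 8 counts. Jmjd1c (chr10:67096125-67256326), the third member of this family, had 5.21, 5.70 and 2.75, from 203, 264 and 8 counts. In each case both MEF samples lay well above the library labelled ESC. CPM was 7.43-fold lower for Kdm3a (edgeR adjusted p = 0.000155), 11.6-fold lower for Kdm3b (edgeR adjusted p = 1.65e-05) and 7.59-fold lower for Jmjd1c (edgeR adjusted p = 0.000424). The falls were smaller after correction for GC content and gene length, with differences of -1.52, -2.07 and -1.44 in place of -2.67, -3.32 and -2.70, and the calls held.

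Kdm4a, Kdm4b and Kdm4c remove methyl groups from H3K9 and H3K36, and they moved in opposite directions. Kdm4a (chr4:118136957-118180043) had log2 levels of 6.89 in both MEF samples and 2.90 in the library labelled ESC, from 663, 606 and 9 counts. It was the JmjC demethylase with the highest TPM in MEFs, 52.8 and 58.5 against 1.03, and its CPM was 18.2-fold lower in the library labelled ESC (difference -3.99 with a MEF SD of 0.0037, edgeR adjusted p = 2.84e-06). Kdm4c (chr4:74242497-74405860) had 128 and 134 counts in MEFs and 1 in the library labelled ESC. That single count puts its CPM at 2.96% of the MEF level, with an exact 95% counting interval of 0.0746% to 16.6%, and its difference was -3.88 (edgeR adjusted p = 0.000148). Kdm4b (chr17:56326062-56402870) was instead higher, with log2 levels of 5.15, 4.97 and 5.92 (difference 0.86, edgeR adjusted p = 0.00147), but not after both corrections (0.22, edgeR adjusted p = 0.118). The library labelled ESC held 83 counts of Kdm4b beside 9 of Kdm4a and 1 of Kdm4c.

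Phf2 (chr13:48801750-48871119), a JmjC enzyme of H3K9, had log2 levels of 6.08, 6.07 and 3.03, from 375, 342 and 10 counts. It was 9.25-fold lower in the library labelled ESC (edgeR adjusted p = 2.0e-05), and the MEF samples were nearly equal. Kdm7a (chr6:39136623-39206789), which acts on H3K9 and H3K27, went the other way, with 3.11, 3.56 and 7.07 from 43, 56 and 186 counts. The library labelled ESC had more counts than either MEF sample at less than the depth of each, and the CPM was 14.4-fold higher (difference 3.73 with a MEF SD of 0.32, edgeR adjusted p = 7.98e-07).

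The remaining JmjC demethylases were assigned here to H3K4, H3K27 or H3K36. Kdm2b (chr5:122870665-122989823), which removes methyl groups from H3K36 and recruits the PRC1.1 complex to CpG islands, had log2 levels of 5.42, 5.44 and 4.13 and was 2.55-fold lower (edgeR adjusted p = 0.00285). Its relative Kdm2a had 6.74, 6.89 and 7.03 and was not called (edgeR adjusted p = 0.0714). With both corrections Kdm2a was called higher (1.23, edgeR adjusted p = 0.000152). The H3K4 demethylases Kdm5a and Kdm5b, which are close paralogues, moved apart, Kdm5a by 0.79 (edgeR adjusted p = 0.000713) and Kdm5b by -0.92 (edgeR adjusted p = 0.0128). The call of Kdm5b was lost after both corrections (0.30, edgeR adjusted p = 0.0977), where Kdm5a differed by 1.74. Kdm6b, an H3K27 demethylase, rose by 0.62 (edgeR adjusted p = 0.00946). Kdm8 had 34, 20 and 3 counts and was not called, its CPM being 43.0% of the MEF level with an exact counting interval of 8.61% to 133%. Neither amine oxidase was called without corrections, with differences of 0.22 for Kdm1a and -0.82 for Kdm1b. With both corrections Kdm1a was called higher (0.76, edgeR adjusted p = 0.00107) and Kdm1b was not called (edgeR adjusted p = 0.844). Of the 9 members with fewer than 10 counts in the library labelled ESC, 7 were JmjC demethylases, so depth limits how well these falls are sized.

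**Figure D2:**
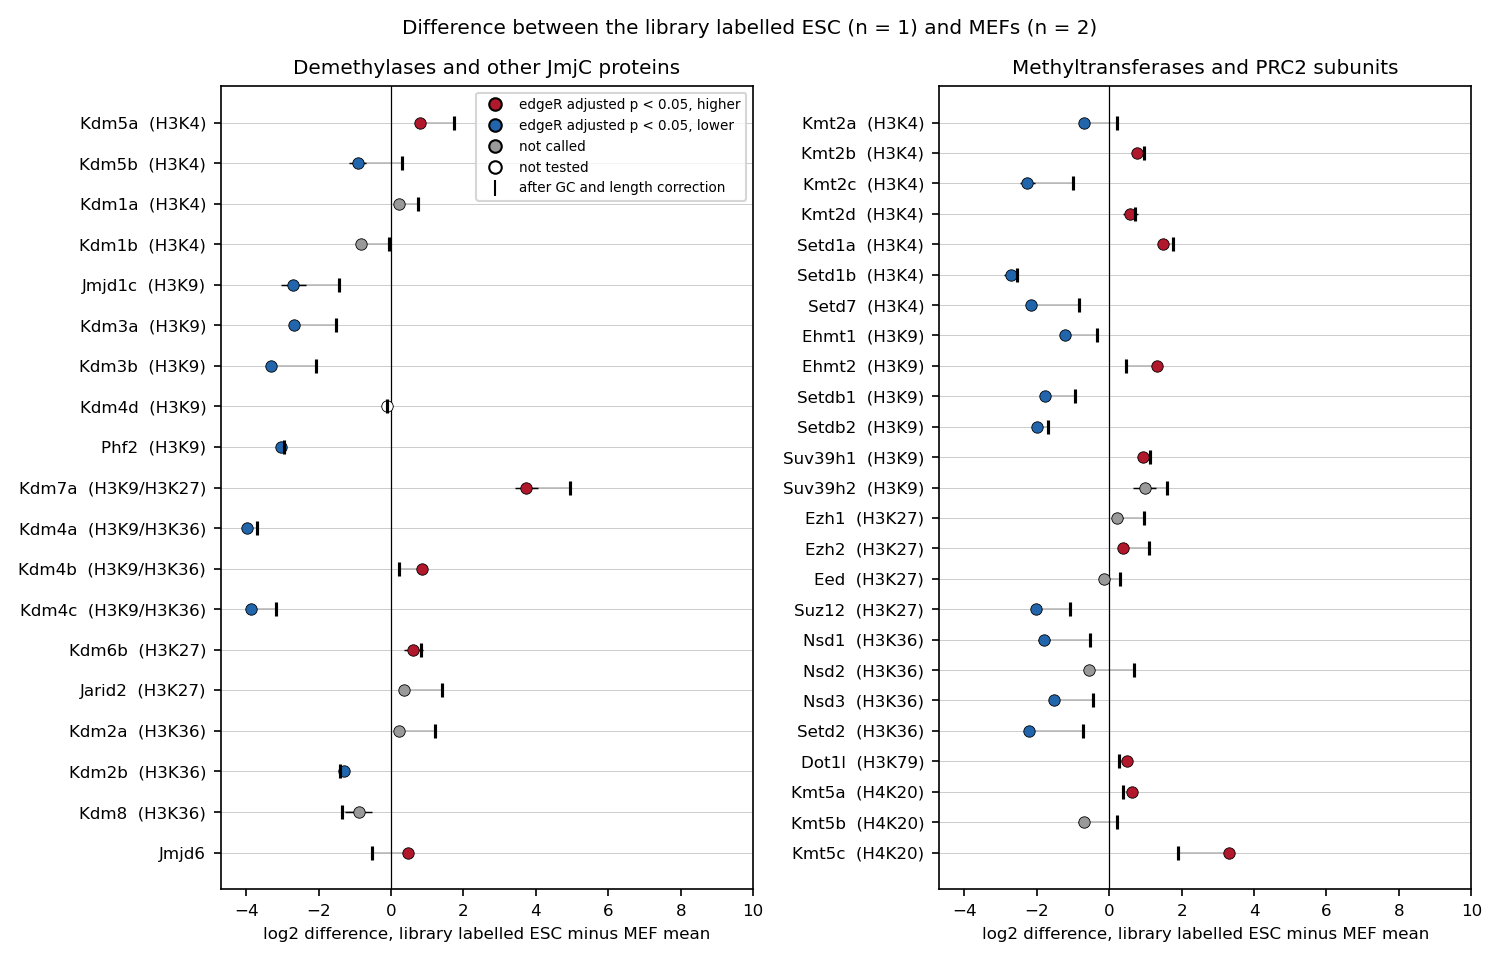
Difference in log2(TMM-scaled CPM + 1) of the library labelled ESC from the mean of both MEFs for each member, with the MEF SD (n = 2) as a bar and colours for the edgeR call. Ticks show the same difference after correction for GC content and gene length. Kdm4a lies at -3.99 and Kdm7a at 3.73, and the tick of Kmt2a crosses to the other side of 0.

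Among the 23 methyltransferases 9 rose, 10 fell and 4 were not called, beside 31.4% of all genes called higher and 36% lower. Their median difference was -0.56. For H3K9 the paired enzymes of the G9a complex were called in opposite directions without corrections. Ehmt2 (chr17:34898469-34914052) had log2 levels of 7.68, 7.59 and 8.96, from 1150, 989 and 692 counts, and was 2.51-fold higher in the library labelled ESC (edgeR adjusted p = 4.66e-05). Ehmt1 (chr2:24789928-24919614) had 5.87, 5.83 and 4.62 and was 2.40-fold lower (edgeR adjusted p = 0.0022). Setdb1 (chr3:95323525-95357202), which silences retroelements with Trim28, had 5.61, 5.69 and 3.87 and was 3.61-fold lower (edgeR adjusted p = 0.000417). Both MEF samples lay above the library labelled ESC for Ehmt1 and Setdb1 and below it for Ehmt2. After correction for GC content and length Ehmt1 was no longer called (-0.34, edgeR adjusted p = 0.529), and the difference of Ehmt2 was 0.45 in place of 1.32 and that of Setdb1 -0.93 in place of -1.78.

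Setdb2 (chr14:59402009-59440884), a relative of Setdb1, had 33, 30 and 1 counts (edgeR adjusted p = 0.03). Its CPM was 12.3% of the MEF level, with an exact counting interval of 0.307% to 71.0%, and the call was lost after both corrections (edgeR adjusted p = 0.0824). The heterochromatin enzyme Suv39h1 rose by 0.93 (edgeR adjusted p = 0.00066). Suv39h2, its relative, differed by 0.98 without passing the test (edgeR adjusted p = 0.0539), from 25, 33 and 16 counts. With both corrections Suv39h2 was called higher (1.60, edgeR adjusted p = 0.0107).

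The H3K4 methyltransferases also divided within their pairs. Setd1a (chr7:127776670-127800122) had log2 levels of 5.78, 5.84 and 7.29 and was 2.82-fold higher in the library labelled ESC (edgeR adjusted p = 1.71e-05). Its paralogue Setd1b (chr5:123142193-123168629) had 4.8, 5.04 and 2.20, from 151, 165 and 5 counts, and was 8.19-fold lower (edgeR adjusted p = 0.00036). Both genes encode catalytic subunits of COMPASS complexes, and the ranges of MEFs and the library labelled ESC did not overlap in either.

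Kmt2c (chr5:25271798-25498783), an enhancer enzyme, had 5.27, 5.55 and 3.15 and was 5.28-fold lower (edgeR adjusted p = 0.000369). Corrected for GC content and length, its difference was -1.0 in place of -2.26 and was not called (edgeR adjusted p = 0.0575). Its paralogue Kmt2d rose by 0.59 (edgeR adjusted p = 0.00663), as Kmt2b did by 0.76 (edgeR adjusted p = 0.00149), while Kmt2a fell by 0.70 (edgeR adjusted p = 0.0282) but not after both corrections (0.23, edgeR adjusted p = 0.0742). Setd7 (chr3:51515319-51560879), which methylates H3K4 and non-histone proteins, had 6.48, 6.65 and 4.40 and was 4.68-fold lower (edgeR adjusted p = 6.32e-05), and its difference went from -2.17 to -0.84 with both corrections, where it was still called.

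For H3K36, 3 of 4 methyltransferases were called lower and none higher without corrections, beside 36% of all genes called lower. With correction for GC content and length none was called lower, beside 34.6% of all genes, and Nsd2 was called higher. Setd2 (chr9:110532597-110618633), the enzyme of the trimethylated state, had log2 levels of 6.45, 6.56 and 4.30 and was 4.83-fold lower (edgeR adjusted p = 4.95e-05). Nsd1 (chr13:55209782-55318325) had 6.80, 7.04 and 5.12 and was 3.58-fold lower (edgeR adjusted p = 0.000157). Nsd3 (chr8:25601601-25719667) had 6.09, 6.04 and 4.54 and was 2.97-fold lower (edgeR adjusted p = 0.000505). The MEF samples lay above the library labelled ESC for these genes. Nsd2 differed by -0.56 and was not called (edgeR adjusted p = 0.0863). The corrected differences were -0.73 for Setd2 (edgeR adjusted p = 0.0615), -0.53 for Nsd1 (edgeR adjusted p = 0.134), -0.44 for Nsd3 (edgeR adjusted p = 0.325) and 0.69 for Nsd2 (edgeR adjusted p = 0.00345).

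Kmt5c (chr7:4740115-4747514), which adds further methyl groups at H4K20, had log2 levels of 3.08, 3.19 and 6.43, from 42, 42 and 119 counts. It was 11.0-fold higher in the library labelled ESC (difference 3.30 with a MEF SD of 0.078, edgeR adjusted p = 1.71e-06), and after both corrections the difference was 1.90. Its paralogue Kmt5b had 4.72, 4.94 and 4.13 and was not called (edgeR adjusted p = 0.125), while Kmt5a rose by 0.63 (edgeR adjusted p = 0.0021). Dot1l, which methylates H3K79, rose by 0.49 (edgeR adjusted p = 0.0108) but was not called after both corrections (0.26, edgeR adjusted p = 0.0599).

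Within PRC2, which writes H3K27 methylation, the subunits did not move together. Suz12 (chr11:79993106-80034123), needed for assembly of the complex, had log2 levels of 5.80, 5.85 and 3.80, from 309, 292 and 18 counts, and was 4.31-fold lower (edgeR adjusted p = 0.000163). Both corrections left a called difference of -1.07 in place of -2.03 for Suz12. The catalytic subunit Ezh2 rose by 0.38 (edgeR adjusted p = 0.0335). Ezh1, the alternative catalytic subunit, differed by 0.23 (edgeR adjusted p = 0.294), Eed by -0.14 (edgeR adjusted p = 0.938) and the cofactor Jarid2 by 0.36 (edgeR adjusted p = 0.134). Ezh1 and Jarid2 were called higher after both corrections (edgeR adjusted p = 0.0156 and 0.002). Jmjd6, which hydroxylates lysines of other proteins, rose by 0.46 (edgeR adjusted p = 0.0136) but not after both corrections (-0.52, edgeR adjusted p = 0.119).

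To show the sequence in front of members that moved farthest, upstream windows of RefSeq on GRCm38.p6 were read for the 34 members with an entry, each 250 bases long. The windows shown are those of Kdm7a and Kmt5c, which rose most, of Kdm4a, which fell most, and of Suz12, the PRC2 subunit that fell, trimmed where they met an annotated exon. Capitals mark the GC box GGGCGG, the CCAAT box and the hypoxia response core ACGTG, each on either strand, where ACGTG also lies within the E-box CACGTG. The windows are Kdm7a at chr6:39206790-39207023 on the minus strand, Kmt5c at chr7:4739877-4740114 on the plus strand, Kdm4a at chr4:118180044-118180293 on the minus strand and Suz12 at chr11:79992856-79993105 on the plus strand.
Kdm7a: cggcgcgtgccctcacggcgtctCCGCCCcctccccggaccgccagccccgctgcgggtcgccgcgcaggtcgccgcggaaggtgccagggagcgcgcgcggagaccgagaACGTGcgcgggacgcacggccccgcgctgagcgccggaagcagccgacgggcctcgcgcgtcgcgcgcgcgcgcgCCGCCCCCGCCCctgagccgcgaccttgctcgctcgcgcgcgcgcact
Kmt5c: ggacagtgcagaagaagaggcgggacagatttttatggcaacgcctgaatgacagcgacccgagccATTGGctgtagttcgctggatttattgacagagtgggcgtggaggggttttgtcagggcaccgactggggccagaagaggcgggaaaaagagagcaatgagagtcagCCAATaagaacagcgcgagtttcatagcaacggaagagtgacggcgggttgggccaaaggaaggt
Kdm4a: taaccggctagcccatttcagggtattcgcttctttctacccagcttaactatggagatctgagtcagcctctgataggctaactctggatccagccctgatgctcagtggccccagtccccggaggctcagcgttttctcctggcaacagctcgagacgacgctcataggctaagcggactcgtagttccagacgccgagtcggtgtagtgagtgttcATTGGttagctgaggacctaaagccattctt
Suz12: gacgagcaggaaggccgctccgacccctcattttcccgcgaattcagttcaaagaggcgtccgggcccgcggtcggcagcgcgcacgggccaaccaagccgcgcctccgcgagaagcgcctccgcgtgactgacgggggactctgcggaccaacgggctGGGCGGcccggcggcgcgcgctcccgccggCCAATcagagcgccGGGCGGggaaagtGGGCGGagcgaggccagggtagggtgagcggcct

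The printed window of Kdm7a held 52 CG dinucleotides and that of Suz12 held 37, against 13 for Kmt5c and 12 for Kdm4a. Among these picked windows, which differ in length, a high and a low number occurred both for genes that rose and for genes that fell. Whether the number goes with direction over all members was not tested. Over the 34 members the median was 21.5 CG dinucleotides per full window, and over all 27025 windows it was 6. The GC box was present in 61.8% of member windows and 32.9% of all windows. The CCAAT box was present in 41.2% and 34.5%, and ACGTG in 23.5% and 16.6%. These are matches of letters and no measure of binding.

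The contrast of JmjC demethylases with methyltransferases depended on the residue. Of 14 JmjC demethylases tested 4 rose, 8 fell and 2 were not called, beside 31.4% of all genes called higher and 36% lower. Their median difference was -0.92 over 15, against -0.56 over the 23 methyltransferases. The 15 include Kdm4d with 1, 0 and 0 counts, and with at least 10 counts in 1 library required, their median was -1.11. The difference of the medians was -0.36, and it was -0.55 with that requirement, -0.19 without OG2 MEFs and -0.61 without ICR MEFs. Without ICR MEFs the JmjC median was the value of Kdm8, which was not called. At H3K9 the median was -2.70 for demethylases and -0.15 for methyltransferases. At H3K4 it was -0.30 and -0.70, at H3K36 -1.1 and -1.67, and at H3K27 2.18 and 0.30, in the same order. The H3K4 demethylases were the JmjC enzymes Kdm5a (0.79) and Kdm5b (-0.92) and the amine oxidases Kdm1a (0.22) and Kdm1b (-0.82). Their median is therefore not one of JmjC demethylases alone. Correction for GC content and length gave -1.52 and 0.05 at H3K9, 0.53 and 0.23 at H3K4, -1.39 and -0.49 at H3K36, and 2.88 and 1.03 at H3K27. The order of the H3K36 medians was thus reversed, as it was with length bins (-1.01 and -0.77) and with GC bins (-1.48 and -1.22), and both H3K4 medians turned positive. The H3K27 demethylases among the members were Kdm6b and Kdm7a alone, and the Kdm4 enzymes and Kdm7a were counted at 2 residues each. Groups by residue hold members only, so other measured enzymes enter no median or ratio. Among these is the H3K27 demethylase Kdm6a, with 102, 105 and 13 counts and a difference of -0.97 (edgeR adjusted p = 0.066). Its paralogue Uty had 64, 99 and 43 counts and differed by 1.01 (edgeR adjusted p = 0.0187).

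Summed over the members of each residue, demethylase TPM was 0.730 of methyltransferase TPM at H3K9 in OG2 and 0.847 in ICR MEFs, while the library labelled ESC had a ratio of 0.096. In CPM, which is not scaled by length, the H3K9 ratios were 1.1, 1.18 and 0.367. Ehmt2 weighed heavily in them, since without it the TPM ratios were 1.92, 1.88 and 1.13 and the CPM ratios 2.62, 2.68 and 1.97. Kdm7a, with 7.63, 10.8 and 133 CPM, was among the H3K9 demethylases, and no H3K9 ratio without it was made. At H3K27 the TPM ratios were 0.409, 0.485 and 1.08, and with Kdm7a left out they were 0.367, 0.430 and 0.502. In CPM the H3K27 ratios were 0.976, 1.19 and 3.09, and 0.827, 0.996 and 1.11 without Kdm7a.

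At H3K36 the TPM ratios were 1.58 in both MEF samples and 2.35 in the library labelled ESC. In CPM they were 0.965, 0.922 and 1.70, but 1.15, 1.19 and 1.21 in CPM corrected for GC content and length. At H3K4 the demethylases summed were Kdm5a, Kdm5b, Kdm1a and Kdm1b. The TPM ratios there were 1.18, 1.13 and 3.87, and without Kdm5a they were 0.996, 0.919 and 0.955. The higher H3K4 ratio of the library labelled ESC was thus carried by Kdm5a, and in CPM the ratios were 0.707, 0.558 and 0.638. For all JmjC demethylases against all methyltransferases the TPM ratios were 0.511, 0.559 and 0.387.

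**Figure D3:**
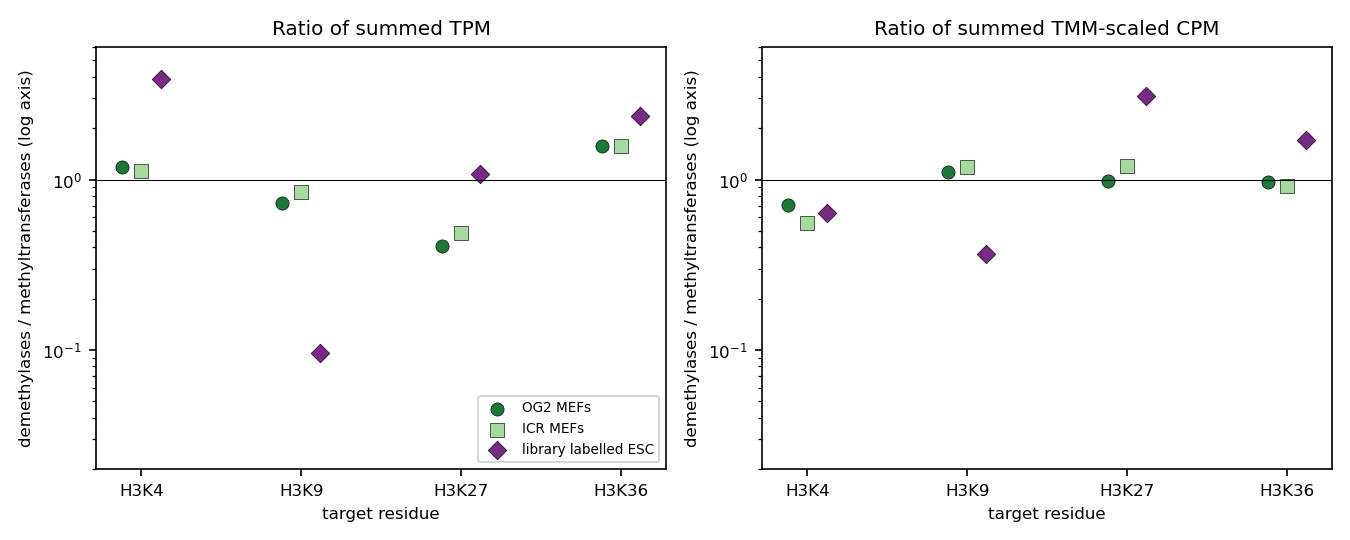
Ratio of the summed demethylases to the summed methyltransferases of each residue, on a log axis, in TPM on the left and TMM-scaled CPM on the right, 1 point per library. The H3K4 demethylases include the amine oxidases Kdm1a and Kdm1b. At H3K9 the library labelled ESC lies below both MEF samples on either scale, and at H3K4 it lies above them in TPM (3.87) and between them in CPM (0.638).

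Paralogue pairs differed in how their TPM ratio moved. The ratio of Ehmt2 to Ehmt1 was 5.19 in OG2 and 3.99 in ICR MEFs, while the library labelled ESC had 85.1. That of Kmt5c to Kmt5b was 1.37, 0.662 and 9.36, and that of Kdm5b to Kdm5a was 1.58, 1.32 and 0.058. The ratio of Ezh2 to Ezh1 was 3.66, 3.47 and 4.13, a smaller shift than in these pairs. These ratios rest on TPM and so on the length that RSEM gave to each gene in each library.

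That length, weighted over the transcripts RSEM assigned reads to, differed between libraries for some members. For Kdm5a it was 5541 bases in OG2 and 4872 in ICR MEFs, while the library labelled ESC had 785, or 15.1% of the MEF mean, whereas the only coding transcript of Kdm5a in GENCODE M21 has 10944 bases. For Ehmt2 it was 3213, 3764 and 1365 bases, or 39.1% of the MEF mean. Setd1b was at 39.8%, Kmt2c at 53.2% and Jmjd6 at 55.8%, while Kmt2d was at 225% and Kmt5c at 163%. The TPM of Kdm5a, 21.4 and 26.2 in MEFs against 110 in the library labelled ESC, differed more than its CPM, which was 1.74-fold higher.

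**Figure D4:**
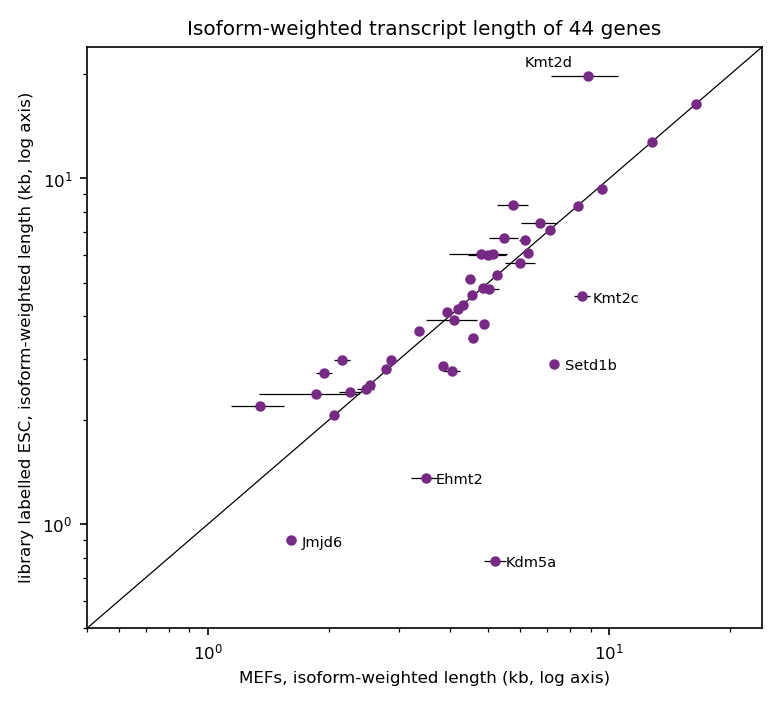
Isoform-weighted transcript length of the 44 members in the library labelled ESC against the MEF mean, both in kb on log axes, with a bar from the OG2 to the ICR value. Most members lie near the line of equal length, and Kdm5a (785 bases against 5541 and 4872) lies farthest below it.

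Longer genes were lower in the library labelled ESC, over the members as over all genes. Spearman's rho between gene length and difference was -0.30 over the 43 members tested and -0.36 over 12601 genes, and with GC content it was 0.27 and 0.23. The members were long, with a median of 4542 bases against 2373 over all genes. After correcting for GC content and gene length in 20 bins each, the median was -1.37 for JmjC demethylases and 0.26 for methyltransferases, a difference of -1.63. That JmjC median was the value of Kdm8, which was not called and had 3 counts in the library labelled ESC. With length bins alone edgeR called 19 members higher and 16 lower, against 28.4% and 34.2% of all genes. In the edgeR fit with both corrections, 4 JmjC demethylases were higher and 7 lower, and 11 methyltransferases were higher and 3 lower, against 28.2% and 34.6% of all genes. The H3K9 ratios in corrected CPM were 0.910, 0.959 and 0.684.

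In the 8 fits made, which included DESeq2 and the corrections, 6 of the 14 higher calls held throughout, those of Kdm5a, Kdm7a, Suv39h1, Ehmt2, Setd1a and Kmt5c, where 18.1% of all genes tested were called higher in every fit. Of the 19 lower calls 10 held throughout, against 20.3% of all genes tested, and each had a smaller difference after both corrections. Of these, 6 were JmjC demethylases, namely Kdm3a, Kdm3b, Jmjd1c, Kdm4a, Kdm4c and Phf2. The others were Suz12, Setdb1, Setd1b and Setd7. Over all genes 2291 of 3980 higher calls and 2571 of 4563 lower calls held throughout, a larger share in each direction than among the members. They made up 18.1% and 20.3% of the 12663 genes tested, beside 6 and 10 of the 43 members tested.

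Genes that work with the members were read from fixed lists, to be set against 31.4% of all genes called higher and 36% lower, or 28.2% and 34.6% with both corrections. Of 11 COMPASS partners 5 rose and 1 fell, with Dpy30 (3.10, edgeR adjusted p = 7.76e-07) and Ash2l (1.37, edgeR adjusted p = 2.55e-05) higher and Ncoa6 (-2.15, edgeR adjusted p = 0.000123) lower. The COMPASS counts were 7 higher and 2 lower with both corrections. Of 7 H3K9 partners and readers 2 were called higher and 4 lower, and with both corrections 3 higher and 1 lower, since Cbx5 went from lower (edgeR adjusted p = 0.024) to higher (edgeR adjusted p = 0.00423) and Atf7ip and Mphosph8 lost their calls. Wiz, a zinc finger partner of Ehmt1 and Ehmt2, had 218, 240 and 2102 counts (5.12, edgeR adjusted p = 1.35e-07), and Cbx1, which binds methylated H3K9, differed by -2.56 (edgeR adjusted p = 0.000953). Of 6 PRC2 partners 1 rose and 1 fell (2 and 1 with both corrections), and of 3 DOT1L partners 2 rose and 1 fell in either fit.

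Of 7 CoREST and PRC1.1 partners 2 rose and 4 fell, by count in either fit. The deacetylases Hdac1 and Hdac2 were among them in opposite directions (3.45, edgeR adjusted p = 1.24e-06, and -2.60, edgeR adjusted p = 1.34e-05), and the scaffold Rcor1 fell (-2.95, edgeR adjusted p = 2.59e-05). Of 13 other writers and erasers 4 rose and 3 fell (5 and 3 with both corrections). The JmjC demethylase Phf8 fell (-4.24, edgeR adjusted p = 4.63e-05), with 177, 163 and 1 counts, so the size of its fall is imprecise. The other falls were those of the H3K36 methyltransferase Ash1l (-3.04, edgeR adjusted p = 3.08e-05) and of Kmt2e (-2.47, edgeR adjusted p = 5.31e-05). Of 4 transporters of ascorbate or its oxidized form 2 rose and 2 fell, by count in either fit. Slc23a2, an ascorbate transporter, had 136, 134 and 1 counts, Slc23a1 had 2, 0 and 20, and Slc2a1, which carries the oxidized form, differed by -2.49 (edgeR adjusted p = 3.3e-05).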

How the data were processed

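Libraries of 3 samples were analysed. The paper describes trimming and alignment with bowtie2 to Ensembl v67 transcripts, and the submitters' processing notes name Bowtie, RSEM and mm10. The release behind the counts is unsure. With RSEM the authors made, per gene, an expected count, which was treated as a value before the GC-content normalization the paper names, and TPM, which the deposited tables scale by gene length. The FPKM values that the authors' RSEM run also deposited were not used. RSEM divides reads shared by near-identical genes, so paralogue counts are uncertain. No source used here states strand-specific counting, so overlapping antisense reads cannot be told apart.

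Expected counts were rounded, and genes at 0 in all 3 libraries were left out. Of the deposited identifiers 98.3% matched GENCODE M21 on GRCm38, which gave symbols, positions and GC content. Levels were log2(CPM + 1) with TMM factors of 1.09, 1.13 and 0.812 for OG2 MEFs, ICR MEFs and the library labelled ESC, whose counts summed to 5149312, 4590619 and 1717838 (3 counts are 0.583, 0.654 and 1.75 CPM). Fold values are ratios of TMM-scaled CPM. The test was edgeR 4.0.16 in R 4.3.3 (filterByExpr, TMM, quasi-likelihood, Benjamini-Hochberg over all genes tested), with 1 residual degree of freedom from the MEF samples. A prior drawn from all genes tested had a median of 7.84 degrees of freedom, so a p-value does not measure a gene's own MEF SD. That fit used TMM factors of 1.14, 1.17 and 0.750 in the same order, made from the genes kept by its filter. Its own log2 fold changes, to which the p-values belong, therefore differ from the printed differences. For Eed the fit gave 0.025 in place of -0.14. The script was checked with simulated counts. Exact (Clopper-Pearson) 95% intervals describe counting error alone, because PCR copies of a molecule were not marked by identifiers.

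Alternatives were pseudocounts of 0.1 and 5, median-of-ratios factors, full-quantile normalization (limma 3.58.1), TPM, corrections over 20 bins of GC content, length or both, a minimum of 10 counts, DESeq2 1.42.0, and fits or values without either MEF sample. The edgeR fits with GC bins and with TMM factors of all counted genes were added after seeing the data. The members and gene lists were chosen with earlier results of these data known. Every member is accounted for. Levels in each library are written out for members called by edgeR that differed from each MEF sample by 1 log2 unit or more, for the 3 highest in MEF TPM, and for others where a comparison needed them, which were chosen after their values were seen. Of each partner list at most 3 genes are named for having the largest differences. Cbx5, Atf7ip and Mphosph8 are named besides because their calls changed with both corrections. Kdm6a and Uty are named because they stand outside the groups by residue. Promoter windows are those of RefSeq on GRCm38.p6. The remaining values came from scipy 1.17.1, pandas 2.3.3 and numpy 2.4.6 under Python 3.11.15, and figures from matplotlib 3.10.9.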

Additional observations from a re-analysis of the deposited data

How the results depend on the processing

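The library labelled ESC had no replicate and the lowest depth, so its spread is unknown and falls to under 10 counts have imprecise sizes. No paired analysis was possible because only 1 sample stood on the ESC side. Without either MEF sample edgeR had no residual degrees of freedom, so those settings gave values with no test. Leaving out each MEF sample in turn gave medians of -1.16 to -0.75 for JmjC demethylases and -0.56 to -0.55 for methyltransferases, differences of these medians of -0.61 to -0.19, 4 to 5 members at least 1 log2 unit higher and 17 to 19 lower. The median for JmjC demethylases moved from -0.92 to -2.25 with TPM, -1.22 with correction for GC content and -1.37 with correction for GC content and then length. The values of -1.22 and -1.37, and the -1.16 without ICR MEFs, are those of Kdm8, which had 3 counts in the library labelled ESC. The median for methyltransferases moved from -0.56 to -0.52 with a pseudocount of 5, -0.37 with median-of-ratios factors, -0.25 with full-quantile normalization, -1.89 with TPM, 0.40 with length correction, -0.25 with GC correction and 0.26 with both. The difference between these medians moved from -0.36 to -1.31 with length correction, -0.96 with GC correction and -1.63 with both. Members at least 1 log2 unit higher went from 4 to 13 with length correction (18.8% of all genes) and 9 with both corrections (18%), and those lower from 17 to 31 with TPM (43.2%) and 10 with both corrections (25%). With a pseudocount of 0.1, 1 member was at least 1 log2 unit apart between the MEF samples. DESeq2 called 7 members higher (22.8% of genes) in place of 14 and 14 lower (22%) in place of 19, and edgeR with both corrections called 11 lower (34.6%). Differences of called members turned sign in 19 cases. With TPM these were Kdm4b (-0.11), Kdm6b (-0.82), Jmjd6 (-0.15), Ezh2 (-1.12), Suv39h1 (-0.61), Dot1l (-1.08), Kmt2b (-1.02), Kmt2d (-1.89), Setd1a (-0.41) and Kmt5a (-1.43), on a scale where the median of all genes shifted by -1.11. With GC correction they were Kdm4b (-0.12), Dot1l (-0.49) and Kmt2d (-0.15). With length correction they were Kdm5b (0.021), Jmjd6 (-0.32) and Kmt2a (0.40), and with both corrections Kdm5b (0.30), Jmjd6 (-0.52) and Kmt2a (0.23). The median of all genes shifted by 0.13 with a pseudocount of 5, 0.17 with median-of-ratios factors and 0.19 with full-quantile normalization. Of the 668 alternative values, 315 stayed within the MEF spread or, for counts, within 1.5 times, and 307 moved farther with the same sign or as counts. The 315 include values of single members without either MEF sample or with a minimum of 10 counts. Those could not leave the MEF spread by construction, so they are no check of the results. Besides the 19 sign changes of called members, 27 values of uncalled members and of group medians turned sign. What caused these shifts was not tested.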
